A study of Homo sapiens with 12 samples.

Results

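The collagen chain genes encode the polypeptides that wind into the triple helices of collagens, the main structural proteins of the extracellular matrix. They were taken as the genes whose symbol is COL, a type number, A and a chain number, using only probe sets annotated to 1 such symbol. Each gene was read from the probe set with the highest mean over the 12 arrays. This gave 43 genes, from 112 collagen probe sets, among 19775 genes annotated on the array. The genes described are the 25 that reached the array median (a log2 intensity of 6.67) in at least 2 of the 12 arrays, among 14283 genes that did so. COL14A1 and COL23A1 passed with exactly 2 arrays. The 18 others reached the median in 0 arrays, the nearest being COL20A1, COL5A2 and COL4A5 with highest values of 6.66, 6.59 and 6.55.

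RCC4 and UMRC2 are human kidney cancer cell lines described by the submitters as low in endogenous FoxO1 and FoxO3. Each was made to express stably 1 of 3 constructs under puromycin selection: the modified oestrogen receptor domain ERT2 alone (called EV), FoxO1(TA)ERT2 or FoxO3(TA)ERT2. In the TA forms 3 AKT phosphorylation sites are replaced by alanine, and the ERT2 part holds the fusion in the cytoplasm until 4-hydroxytamoxifen (4OHT) moves it to the nucleus. Every one of the 6 engineered lines was measured once with ethanol vehicle and once with 100 nM 4OHT, both for 12 hours. The 12 combinations thus have 1 array each, from 1 plate of cells each, and the only repeat of a construct is the other cell line. Per the labels all arrays, EV and vehicle arrays included, come from cells that carry an ERT2 construct and grew with puromycin. The sample titles, however, call the EV cells empty vector, and the ESR1 probe sets given below do not show ERT2 in them. Whether an engineered line is a clone or a pool, and its passage, are not given in the sources used here.

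As background, fibrillar collagens such as types I and V form the banded fibres of connective tissue, whereas type IV forms the sheet-like network of basement membranes, on which kidney tubule cells rest. Type IV chains assemble as set trios: alpha-1 with alpha-2 chains in nearly all basement membranes, and alpha-3, alpha-4 and alpha-5 chains in the glomerulus and parts of the tubule. Type VI forms beaded filaments, type VII the anchoring fibrils under epithelia, type VIII a short-chain network, and type XII, a fibril-associated collagen (FACIT), decorates the surface of fibrils. Types XIII and XXIII span the plasma membrane, and type XVIII is a multiplexin of basement membranes whose C-terminal fragment is endostatin. FoxO proteins are transcription factors of the forkhead family, which AKT keeps out of the nucleus.

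The type IV genes lie head to head in pairs, so that a short stretch separates genes that are read in opposite directions, and the values of both members are given together below. The sequences are from RefSeq (GRCh38.p14), written 5′ to 3′, and capitals mark motif matches, searched on both strands. The motifs were the GC box, spelt GGGCGG, the CCAAT box, named for its letters, and the forkhead core, spelt TAAACA. The first is the 126 bases between the start sites of COL4A1 (minus strand) and COL4A2 (plus strand) at chr13:110307158-110307283, shown on the plus strand.
COL4A1-COL4A2: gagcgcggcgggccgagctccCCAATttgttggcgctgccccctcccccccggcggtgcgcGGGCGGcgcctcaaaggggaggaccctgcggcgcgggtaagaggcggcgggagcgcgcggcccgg
The second is the 135 bases between the annotated 5′ ends of COL4A4 (minus strand) and COL4A3 (plus strand) at chr2:227164489-227164623, also on the plus strand.
COL4A4-COL4A3: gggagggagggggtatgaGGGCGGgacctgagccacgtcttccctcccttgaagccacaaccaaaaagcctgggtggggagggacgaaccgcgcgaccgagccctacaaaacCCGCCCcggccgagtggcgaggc
The last pair are the 250 bases before the start sites of COL12A1 (chr6:75206054-75206303, minus strand) and COL13A1 (chr10:69801656-69801905, plus strand), shown because COL12A1 had the widest difference in FoxO response between the cell lines and COL13A1 the widest difference in level.
COL12A1: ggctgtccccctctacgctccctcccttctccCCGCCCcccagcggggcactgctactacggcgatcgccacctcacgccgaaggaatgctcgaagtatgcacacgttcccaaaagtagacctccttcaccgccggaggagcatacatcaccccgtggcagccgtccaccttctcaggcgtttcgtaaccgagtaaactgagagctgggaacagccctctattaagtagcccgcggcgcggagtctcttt
COL13A1: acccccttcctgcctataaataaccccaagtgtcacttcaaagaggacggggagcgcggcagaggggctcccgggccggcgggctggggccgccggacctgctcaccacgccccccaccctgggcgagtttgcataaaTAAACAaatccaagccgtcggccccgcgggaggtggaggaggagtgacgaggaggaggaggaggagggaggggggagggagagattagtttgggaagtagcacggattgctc
A window of 300 bases, 250 before to 50 after the start, was at hand for 19 of the 25 genes. A gene was counted where any of its windows held the motif. The GC box was found in 15 of these 19 and in 48.3% of 27305 genes with windows. The CCAAT box was found in 6 of 19 and 39.7%. Windows of COL4A1 and COL4A2 both cover the 126 bases between them, so the boxes marked there counted for both genes. COL4A4 was not among the 15, so its windows did not include the 2 GC boxes marked above. The forkhead core was found in 1 of 19 (COL13A1) and 14.7%. The longer FoxO element GTAAACA, which contains the forkhead core, was found in 0 of 19 and 4.19%. These matches describe letters in a window only. Neither type IV intervening stretch held a forkhead core.

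The array values were deposited as linear intensities whose medians differed between arrays. They lay between 121.2 and 138.7 in 5 of the 6 RCC4 arrays and between 71.1 and 88.7 in the 6 UMRC2 arrays. The sixth RCC4 array, FoxO3 with 4OHT, had a median of 74.6 and so stood with the UMRC2 arrays. Among the vehicle arrays the level as deposited and the cell line cannot be told apart. The values below are log2 intensities after the arrays were quantile normalised and low values were raised to a floor of 4.20, the 20th percentile. The 9 probe sets for ESR1, the gene that ERT2 was made from, had medians with vehicle of 5.28 in RCC4 EV, 7.85 in RCC4 FoxO1 and 9.77 in RCC4 FoxO3, against 4.9, 9.09 and 10.33 in UMRC2. In the lines labelled EV, 2 of the 9 reached the array median in RCC4 and 0 in UMRC2, so these probe sets do not show ERT2 there. In the FoxO lines 6 or 7 of the 9 did. PAX8, a kidney tubule lineage factor, was between 11.17 and 12.58 in all 12 arrays.

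Markers of cell types other than the labelled one were examined as summed levels (log2 of summed intensity). The fibroblast and pericyte list, 4 of whose 8 genes passed the filter (DCN, ACTA2, THY1 and RGS5, each above the median in all 12 arrays), summed to 9.95 to 10.25 in RCC4 arrays and to 10.32 to 10.83 in UMRC2 arrays, so those ranges did not overlap. PDGFRB was at the floor in 8 of 12 arrays, with 8.17 in UMRC2 FoxO3 with 4OHT, and FAP in 4. The endothelial list (1 of 5 past the filter) spanned 8.89 to 9.46 in RCC4 and 8.77 to 9.03 in UMRC2, and CDH5 was at the floor in all 12 arrays. The leukocyte list (1 of 4) spanned 7.07 to 8.05 and 7.46 to 8.16, with CD14 at the floor in all 12. The tubule list (4 of 6) spanned 11.45 to 12.86 and 11.8 to 12.82, the epithelial list (5 of 6) 12.89 to 13.69 and 12.86 to 13.82, and hypoxia-inducible factor targets (4 of 4) 13.87 to 14.33 and 13.75 to 14.6. Such sums hide single genes that differed. With vehicle, RCC4 minus UMRC2 was -5.92 for EPCAM, -6.14 for KRT19 and -3.82 for CDH6, but 0.87 for KRT8 and 0.76 for KRT18. KRT19 was at the floor in all 6 RCC4 arrays. Among tubule genes it was 2.21 for LRP2, -1.23 for PAX2, 0.56 for AQP1 and 0.08 for PAX8. PAX8, KRT18 and VEGFA were the marker genes that fell with the FoxO fusions, with FoxO minus EV responses of -0.89, -1.12 and -1.71 (limma adjusted p = 0.0107, 0.0109 and 0.00615). The part of these markers in the collagen results was not tested.

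The first comparison was between the cell lines, over the 3 vehicle arrays of each. By limma with Benjamini-Hochberg adjustment at 0.05, 16 of the 25 collagen genes differed (64%), against 51.3% of all 14283 genes tested. In RCC4, 5 were higher, against 27.3% of all genes. Another 11 were lower, where 24% of all genes were. Of these 11, COL6A3, COL8A1 and COL13A1 passed the filter through UMRC2 arrays only, which fixed their direction, so the counts of lower genes are no support for it. COL4A3 and COL10A1 passed through RCC4 arrays only. The higher genes were COL1A1, COL4A4, COL12A1, COL18A1 and COL27A1. The lower genes were COL4A1, COL4A2, COL5A1, COL5A3, COL6A1, COL6A2, COL6A3, COL7A1, COL8A1, COL13A1 and COL22A1. 17 had an unadjusted p under 0.05, against 56.6% of all genes. The median RCC4 minus UMRC2 difference was -0.36 over the collagen genes and 0.06 over all genes. On values as deposited, without scaling, the median of all genes moved to 0.77 and the split among collagen genes turned to 11 higher and 8 lower. Each set of 3 vehicle arrays comes from engineered derivatives of 1 parent line, so these p-values measure the spread between derivatives only.

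**Figure D1:**
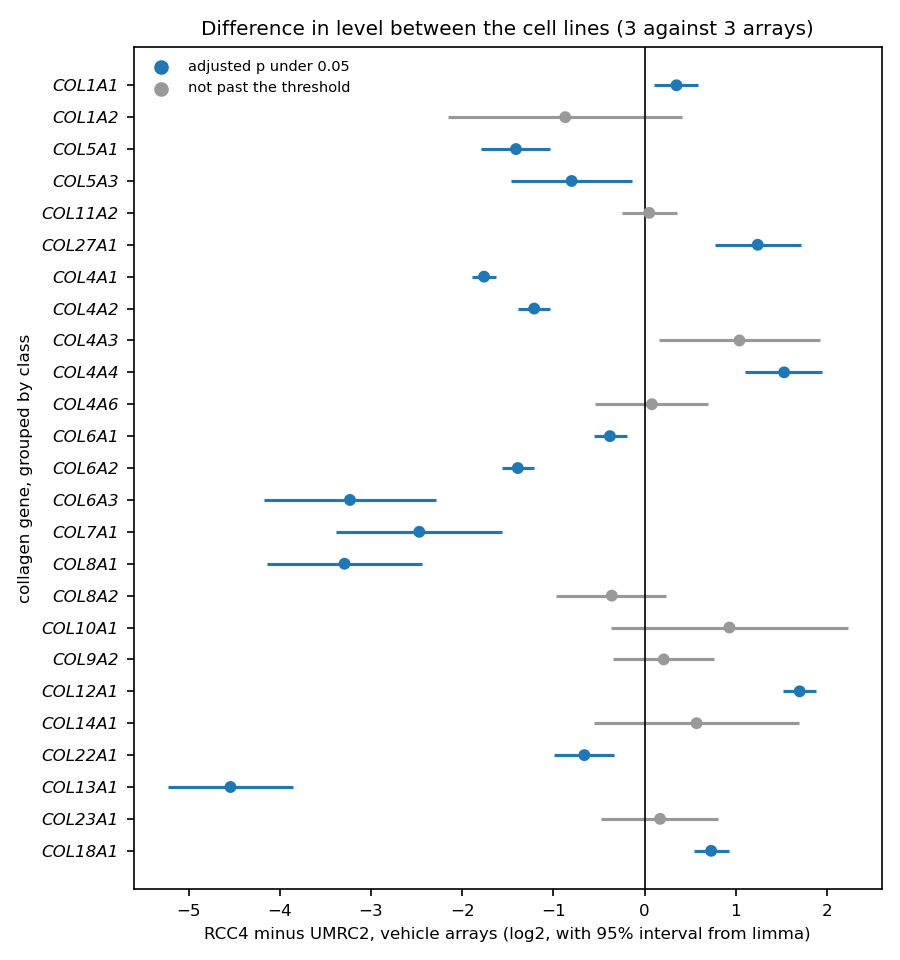
RCC4 minus UMRC2 difference in log2 level over 3 vehicle arrays per line for the 25 collagen genes, with the 95% interval from limma; blue points passed an adjusted p of 0.05. Most of the intervals that clear 0 lie to the left (higher in UMRC2), and COL12A1 at 1.7 lies farthest to the right. Farthest to the left is COL13A1 at -4.54, a size that rests in part on the floor. COL6A3, COL8A1 and COL13A1 passed the filter through UMRC2 arrays only, which fixed their direction.

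Over all 12 arrays, vehicle and 4OHT, 10 collagen genes had every RCC4 value below every UMRC2 value, where 12.3% of all genes did so. COL4A4 and COL18A1 had every RCC4 value above, where 13.1% of all genes did. The 10 were the lower genes above other than COL5A3, and 3 of them are those that passed the filter through UMRC2 only. By the probe sets used, the 3 described type VI genes and both genes of the ubiquitous type IV trio were lower in each RCC4 array. COL4A4 was higher in each. Of the type VI genes, COL6A3 is among those that passed the filter through UMRC2 only, so its direction was fixed. On values as deposited COL6A1 turned sign, and its other bright probe sets gave level differences from -0.11 to 0.18.

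The second comparison asked what nuclear FoxO does, as a response (log2 4OHT minus log2 vehicle in 1 engineered line) of the FoxO1 and FoxO3 lines minus that of the EV lines. 2 of 25 collagen genes passed the test (8%), against 7.79% of all genes. COL1A2 rose, where 3.09% of all genes rose, and COL4A1 fell, where 4.7% of all genes fell. The share called was near that of all genes. The median was -0.10 over the collagen genes and -0.05 over all genes. With all genes kept in the test, or with a constant prior variance in limma, no gene of any kind was called. 4 collagen genes had an unadjusted p under 0.05, where 23.1% of all genes did, and the other 2 were COL4A2 and COL13A1.

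For FoxO3 against EV, the same 2 genes, COL1A2 and COL4A1, were called, where 16.6% of all genes were (6.61% higher and 10% lower). 4 had an unadjusted p under 0.05, adding COL4A4 and COL13A1, where 30.2% of all genes did. For FoxO1 against EV, limma called 0 of 25, where it called 0.084% of all genes, all higher, and 4 had an unadjusted p under 0.05, where 10% of all genes did (COL1A2, COL4A1, COL4A2 and COL9A2). Both comparisons use the same EV arrays. Between FoxO3 and FoxO1, 0 of 25 were called by limma against 5.82% of all genes (2.17% higher and 3.65% lower), and only COL4A1 had an unadjusted p under 0.05, where 21.8% of all genes did. EV cells themselves gave 0 calls among collagen genes and 0% of all genes by limma, with an unadjusted p under 0.05 for COL1A2 and COL5A3, where 2.37% of all genes had one. Lines carrying a fusion did not differ from EV lines with vehicle alone by that test (0 of 25 and 0% of all genes by limma, 0 of 25 at an unadjusted p under 0.05, where 7.18% of all genes were).

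The remaining genes had joint responses that did not pass. Values close to 0 were found for COL6A1 (-0.03), COL6A2 (0.08), COL6A3 (0.03), COL11A2 (-0.10), COL18A1 (-0.18), COL22A1 (-0.01), COL23A1 (0.11), COL8A2 (0.25) and COL4A6 (-0.26). Values farther from 0 were those of COL9A2 (-1.17 ± 0.57), COL10A1 (0.61 ± 0.64), COL14A1 (0.47 ± 0.80) and COL8A1 (-0.41 ± 0.78). Over the 25 genes, 10 joint responses were above 0 and 15 below. Every one of the 4 FoxO responses lay below both EV responses for COL1A1, COL4A1 and COL4A2, where 15.7% of all genes did so, and above both for COL1A2 and COL4A4, where 12% did.

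**Figure D2:**
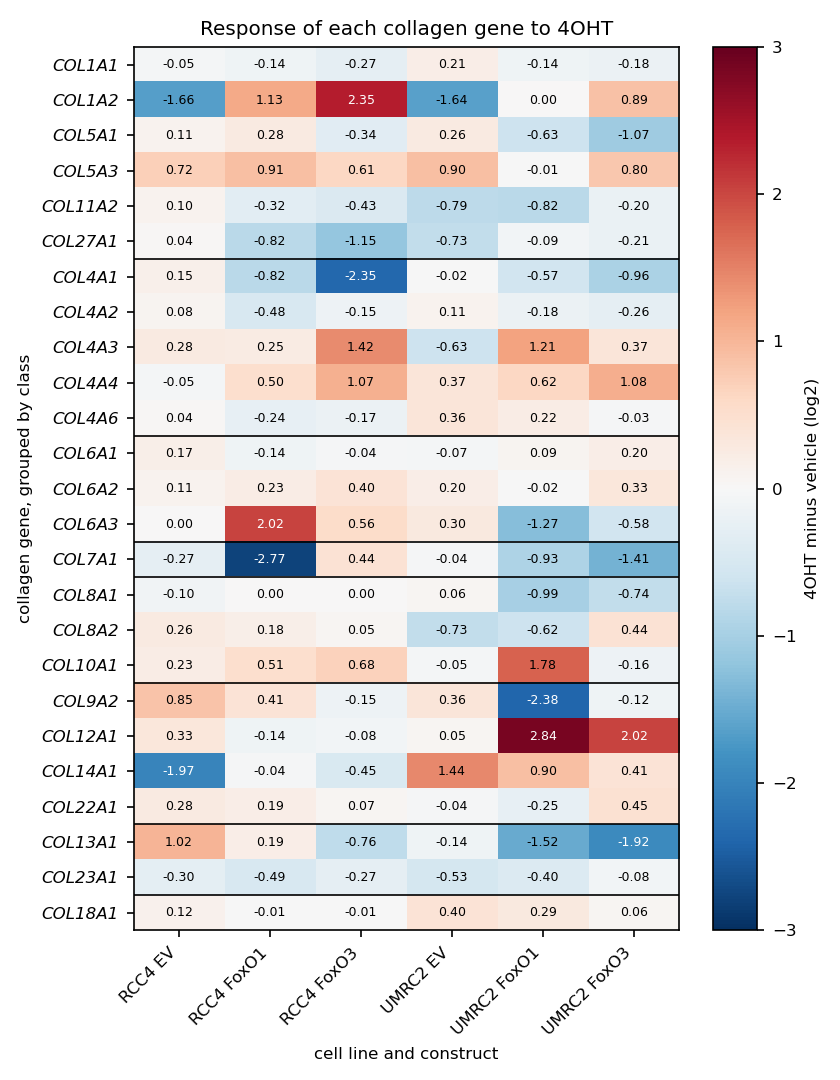
Log2 4OHT minus vehicle response of each of the 25 collagen genes (rows, by class) in the 6 engineered lines (columns), 1 pair of arrays per cell; red is higher and blue lower with 4OHT. COL4A1 is blue in the 4 FoxO columns and near 0 in both EV columns, and COL12A1 is red in the UMRC2 FoxO columns, at 2.84 and 2.02.

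Counted by size, changes of at least 2-fold (1 on the log2 scale) were few in every line. In RCC4 EV 1 collagen gene was higher and 2 lower, where 2.81% and 2.38% of all genes were. RCC4 FoxO1 had 2 higher and 1 lower (4.13% and 3.87% of all genes), and RCC4 FoxO3 had 3 higher and 2 lower (9.9% and 12.2%). UMRC2 EV had 1 and 1 (3.08% and 2.47%), UMRC2 FoxO1 3 and 3 (4.48% and 4.32%), and UMRC2 FoxO3 2 and 3 (8.67% and 10.9%). The genes were not the same in both lines: COL1A2, COL4A3 and COL4A4 were the higher ones in RCC4 FoxO3, and COL4A4 and COL12A1 in UMRC2 FoxO3.

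Of the 6 type IV genes on the array, 5 were described. COL4A1 encodes the alpha-1 chain of the ubiquitous network. With vehicle it measured 12.00, 11.97 and 12.02 in RCC4 EV, FoxO1 and FoxO3 and 13.87, 13.68 and 13.72 in the matching UMRC2 lines. With 4OHT it measured 12.16, 11.14 and 9.68 in RCC4 and 13.85, 13.12 and 12.76 in UMRC2. The EV values barely moved, and all 4 FoxO values were below their vehicle arrays, most of all in RCC4 FoxO3. The FoxO minus EV response was -1.24 ± 0.28 (SE, a 2.36-fold fall, limma adjusted p = 0.0397), in the same direction in 4 of 4 pairs. FoxO3 minus EV was -1.72 ± 0.32 (3.29-fold, adjusted p = 0.0116). FoxO1 minus EV was -0.76 ± 0.32 (adjusted p = 0.49). The direct difference, FoxO3 minus FoxO1, was -0.96 ± 0.32 (95% interval -1.71 to -0.21, adjusted p = 0.134).

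The size of the COL4A1 fall rests on single arrays. Without the RCC4 FoxO3 pair, whose 4OHT array stood apart, the FoxO3 minus EV response was -1.04 and the joint one -0.90. The FoxO3 minus FoxO1 difference was then -0.28, and without the UMRC2 FoxO3 pair it was -1.63. The joint call was lost when the RCC4 EV pair was left out (-0.74), and likewise for the UMRC2 FoxO1 pair (-1.15). FoxO3 minus EV missed the threshold without the RCC4 EV pair, at -1.22. For FoxO1 minus EV, leaving out either FoxO3 pair gave the same fit, with the value of -0.76. Each of these fits leaves 1 pair of a construct, which it matches exactly. Their p-values would hold no spread for that construct and are not given. The other COL4A1 probe set had responses of -0.48, -0.90, -0.69 and -1.24 in the 4 FoxO lines and of 0.49 and -0.02 in EV.

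COL4A2, its head-to-head partner and the alpha-2 chain of the same trio, measured 11.94, 12.09 and 11.83 with vehicle in RCC4 EV, FoxO1 and FoxO3 and 13.28, 13.11 and 13.12 in UMRC2. With 4OHT the RCC4 values were 12.02, 11.61 and 11.69 and the UMRC2 values 13.39, 12.93 and 12.86. Both EV values were a little higher with 4OHT and all 4 FoxO values a little lower. The FoxO minus EV response was -0.36 ± 0.13 (limma adjusted p = 0.136), so it did not pass. The other COL4A2 probe set gave -0.57, which did pass (limma adjusted p = 0.0451), so the call depends on the probe set read. In level, RCC4 was below UMRC2 by -1.76 ± 0.06 for COL4A1 (3.38-fold, adjusted p = 1.44e-07) and by -1.21 ± 0.08 for COL4A2 (2.32-fold, 3.85e-06). The sizes depended on the processing, from -2.15 to -0.85 for COL4A1 and from -1.54 to -0.31 for COL4A2 over the alternative settings.

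COL4A4 and COL4A3 encode the alpha-4 and alpha-3 chains of the glomerular and tubular trio. COL4A4 measured 8.26, 8.22 and 8.04 with vehicle in RCC4 EV, FoxO1 and FoxO3 and 6.82, 6.79 and 6.34 in UMRC2. With 4OHT it measured 8.22, 8.72 and 9.11 in RCC4 and 7.19, 7.41 and 7.42 in UMRC2. It was higher in every RCC4 array than in any UMRC2 array, and each FoxO response was above both EV responses. The FoxO minus EV response was 0.66 ± 0.30 (limma adjusted p = 0.253) and FoxO3 minus EV 0.91 ± 0.35 (0.127), neither past the threshold. The level difference was 1.53 ± 0.18 (2.88-fold, adjusted p = 0.000176). A further COL4A4 probe set that reached the median in 2 arrays had FoxO responses of 1.19, 2.69, 0.52 and 0.85, while the second-brightest one, below the median in all arrays, gave a joint response of -0.16.

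COL4A3 was dim, with 5.99 to 7.41 in RCC4 and 4.95 to 6.16 in UMRC2. Its responses were 0.25 and 1.42 in RCC4 FoxO1 and FoxO3 and 1.21 and 0.37 in UMRC2, against 0.28 and -0.63 in EV. The joint response was 0.99 ± 0.71 (limma adjusted p = 0.467), and the level difference 1.04 ± 0.38 (0.0504) just missed the threshold. As COL4A3 passed the filter through RCC4 arrays only, the direction of that difference was fixed. Its other probe sets, all below the median in every array, gave joint responses of -1.65, 0.74, 2.01, -0.26, -0.28 and 0.38. COL4A6, an alpha-6 chain of smooth muscle and some epithelial basement membranes, stayed between 6.17 and 6.99 in all arrays, with a level difference of 0.08 ± 0.27 (0.835). Across type IV, then, the alpha-1 gene fell with FoxO. By the probe sets used, the alpha-3 and alpha-4 genes had positive values that did not pass, and the sign of both depended on the probe set.

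**Figure D3:**
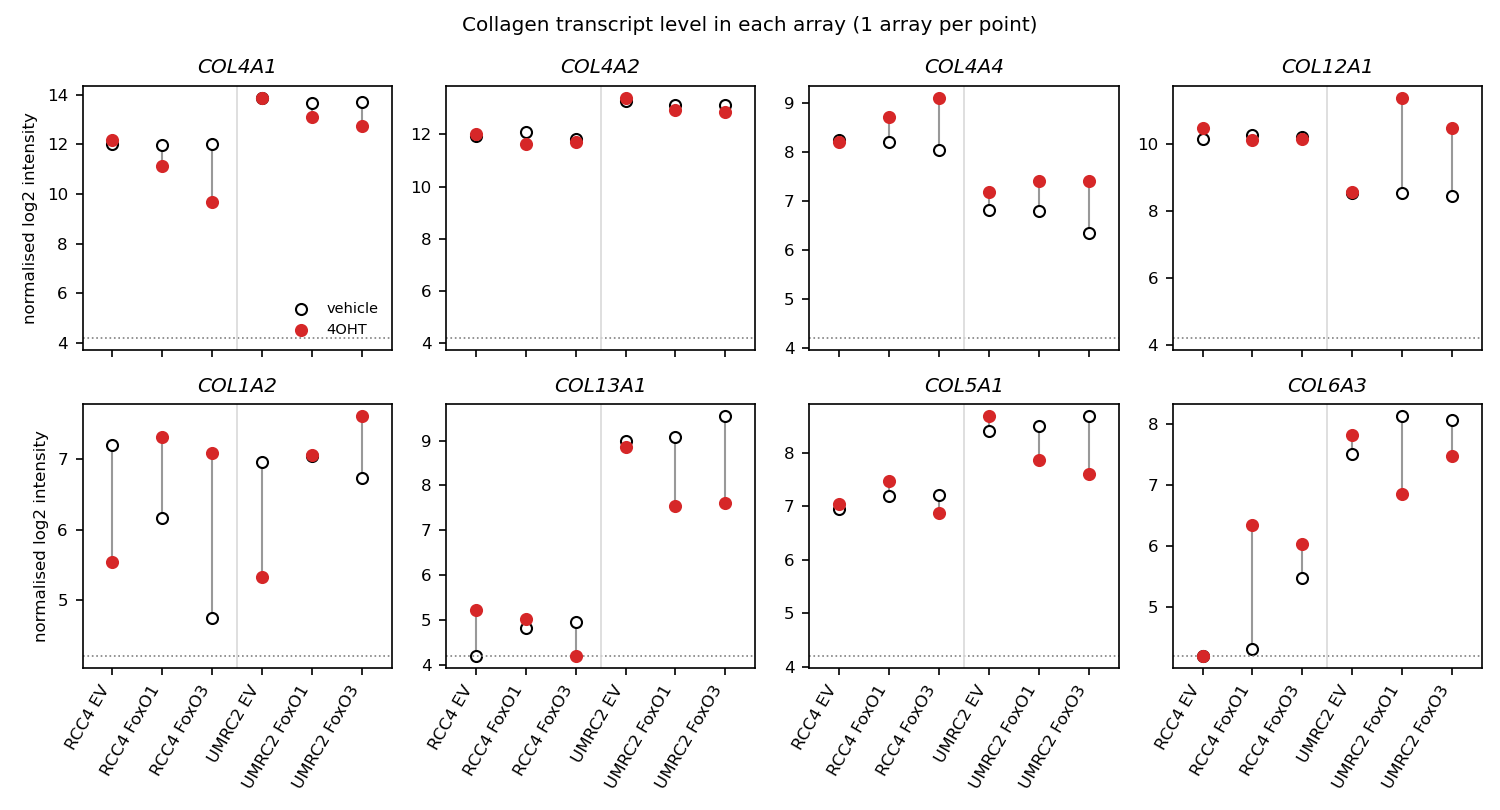
Normalised log2 level of 8 collagen genes in each of the 12 arrays, vehicle as open circles and 4OHT as red circles, joined within an engineered line; the dotted line is the floor of 4.20 and vertical scales differ between panels. The red circles of COL4A1 drop below the open ones in the 4 FoxO lines and not in the EV lines, and those of COL12A1 lie above the open ones in both UMRC2 FoxO lines.

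Of 11 fibrillar genes, 6 were described. COL1A2, the alpha-2 chain of type I collagen, measured 7.2, 6.17 and 4.74 with vehicle in RCC4 EV, FoxO1 and FoxO3 and 6.96, 7.05 and 6.73 in UMRC2. With 4OHT it measured 5.54, 7.31 and 7.09 in RCC4 and 5.32, 7.06 and 7.61 in UMRC2. The EV arrays were lower with 4OHT by nearly the same amount in both lines (responses of -1.66 and -1.64), and the FoxO arrays were level or higher. The FoxO minus EV response of 2.74 ± 0.55 (6.7-fold, limma adjusted p = 0.0272) and the FoxO3 minus EV response of 3.27 ± 0.63 (9.63-fold, 0.0131) thus include an EV response of -1.65 ± 0.45 (adjusted p = 1).

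The COL1A2 result depended on its probe set and on single arrays. The other 2 probe sets of the gene did not reach the array median in any array and were at the floor in 10 and 8 of the 12. The second-brightest gave a joint response of -0.80. The joint call was lost without the RCC4 EV pair (2.09), the RCC4 FoxO1 pair (2.64), the UMRC2 EV pair (3.40) or the UMRC2 FoxO1 pair (2.85). For FoxO3 it was lost without the RCC4 EV pair (2.61) or the RCC4 FoxO3 pair (2.81). Each of these fits leaves 1 pair of a construct and so measures no spread for it. RCC4 and UMRC2 did not differ past the threshold in COL1A2 level (-0.87 ± 0.56, adjusted p = 0.228).

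COL1A1, the alpha-1 chain of type I, showed how far the choice of probe set can carry. By the brightest one it measured 9.69, 9.83 and 9.74 in the RCC4 vehicle arrays (EV, FoxO1, FoxO3) and 9.24, 9.57 and 9.40 in UMRC2, a difference of 0.35 ± 0.11 (limma adjusted p = 0.0248). Its 4OHT values were 9.64, 9.69 and 9.47 in RCC4 and 9.45, 9.43 and 9.22 in UMRC2. The other 2 probe sets that reached the median did so in the 6 UMRC2 arrays, at 7.25 to 7.66 for one and 7.17 to 7.63 for the other. In RCC4 these read 4.20 to 5.38 and 4.20 to 5.68, differences of -2.81 and -3.07 in the opposite direction. The call by the brightest probe set was lost without the RCC4 FoxO1, RCC4 FoxO3, UMRC2 EV or UMRC2 FoxO3 vehicle array (0.31, 0.35, 0.26 and 0.34, limma adjusted p from 0.0605 to 0.0794). No direction between the lines can therefore be given for COL1A1. Its FoxO minus EV response was -0.26 ± 0.19 (0.489), with all 4 FoxO responses below both EV responses and the same sign for the other 2 probe sets.

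COL5A1 and COL5A3 encode chains of type V, which regulates the diameter of type I fibrils. COL5A1 measured 6.94, 7.19 and 7.21 with vehicle in RCC4 EV, FoxO1 and FoxO3 and 8.41, 8.49 and 8.68 in UMRC2. With 4OHT the values were 7.05, 7.47 and 6.87 in RCC4 and 8.68, 7.86 and 7.61 in UMRC2. The groups did not overlap, and the level difference was -1.41 ± 0.16 (2.66-fold, limma adjusted p = 0.000138), with the same sign for both other bright probe sets (-2.20 and -3.67). The FoxO responses were negative in both UMRC2 lines (-0.63 and -1.07) and of either sign in RCC4, and the joint response of -0.63 ± 0.35 did not pass (0.338).

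COL5A3 measured 6.49, 6.30 and 6.50 with vehicle in RCC4 and 6.84, 7.86 and 6.99 in UMRC2, in the order EV, FoxO1 and FoxO3. With 4OHT it was 7.21, 7.21 and 7.11 in RCC4 and 7.74, 7.85 and 7.79 in UMRC2, so it was higher with 4OHT in 5 of 6 lines, EV lines included. Its joint response was -0.23 ± 0.42 (adjusted p = 0.807), and the level difference of -0.80 ± 0.29 was close to the threshold (limma adjusted p = 0.0466), at -0.17 (0.639) on values as deposited. It was lost without any one of the RCC4 EV, FoxO1 and FoxO3 vehicle arrays (-0.83, -0.74 and -0.84) or of the UMRC2 FoxO1 and FoxO3 arrays (-0.49 and -0.92), with adjusted p from 0.0569 to 0.12.

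COL27A1, a fibrillar chain of cartilage and other tissues, measured 10.03, 10.18 and 10.00 with vehicle in RCC4 EV, FoxO1 and FoxO3 and 9.35, 8.60 and 8.55 in UMRC2. With 4OHT it was 10.07, 9.36 and 8.85 in RCC4 and 8.62, 8.51 and 8.34 in UMRC2. RCC4 was higher by 1.24 ± 0.20 (2.36-fold, limma adjusted p = 0.00105), as in each of the 4 other bright probe sets (0.67 to 1.99). With the EV responses subtracted, the RCC4 FoxO values were -0.86 and -1.19 and the UMRC2 values 0.64 and 0.52. The difference between lines, -1.60 ± 0.54 (adjusted p = 1), did not pass. Of the other probe sets that reached the median in all 12 arrays, one had UMRC2 FoxO responses of -0.33 and -0.46 against 0.40 in EV, and the other -0.41 and -0.29 against -0.22, so both lay below EV in UMRC2. COL11A2, a chain of cartilage fibrils, was between 7.70 and 8.64 in all arrays with no call (level difference 0.05 ± 0.13).

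Of 5 beaded filament genes the 3 chains of ordinary type VI collagen were described, and all 3 were lower in RCC4 by the probe set used. COL6A2 measured 10.20, 10.04 and 10.12 with vehicle in RCC4 EV, FoxO1 and FoxO3 and 11.49, 11.42 and 11.60 in UMRC2. With 4OHT it measured 10.31, 10.27 and 10.52 and 11.69, 11.40 and 11.93. The lines stood clearly apart and the treatments did not, with a level difference of -1.39 ± 0.07 (2.61-fold, limma adjusted p = 1.72e-06). COL6A3 measured 4.20 (the floor), 4.32 and 5.48 with vehicle in RCC4 and 7.51, 8.12 and 8.06 in UMRC2. The 4OHT arrays gave 4.20, 6.34 and 6.04 in RCC4 and 7.81, 6.85 and 7.47 in UMRC2. Its level difference of -3.23 ± 0.41 (adjusted p = 0.000223) rests in part on the floor. COL6A3 passed the filter through UMRC2 arrays only, which fixed its direction, so the p-value is no support for it.

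COL6A1 measured 11.20, 11.24 and 11.02 with vehicle in RCC4 EV, FoxO1 and FoxO3 and 11.63, 11.53 and 11.42 in UMRC2. With 4OHT it was 11.37, 11.09 and 10.98 in RCC4 and 11.56, 11.61 and 11.62 in UMRC2. These narrow ranges did not overlap, and RCC4 was lower by -0.38 ± 0.08 (limma adjusted p = 0.00458). On values as deposited the sign turned, to 0.40 (0.00434). The 4 other bright probe sets gave differences close to 0, at 0.18, -0.11, -0.01 and -0.09, so the COL6A1 difference rests on the probe set used. COL6A1 and COL6A2 are neighbours on chromosome 21.

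COL7A1, the anchoring fibril collagen that ties epithelia to the underlying stroma, measured 8.07, 8.17 and 6.49 with vehicle in RCC4 EV, FoxO1 and FoxO3 and 9.97, 10.06 and 10.11 in UMRC2. In the 4OHT arrays it was 7.80, 5.4 and 6.93 in RCC4 and 9.93, 9.14 and 8.69 in UMRC2. RCC4 was lower by -2.47 ± 0.40 (5.54-fold, limma adjusted p = 0.000915), and the other bright probe set gave -1.33. The FoxO responses were -2.77, 0.44, -0.93 and -1.41, and the joint response of -1.01 ± 0.64 did not pass (0.402). The joint response was -1.74 without the RCC4 FoxO3 pair, which leaves 1 FoxO3 pair, whereas the other bright probe set gave a joint response of 0.02.

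The short-chain genes were COL8A1 and COL8A2, chains of the type VIII network under endothelia, and COL10A1 of hypertrophic cartilage. COL8A1 was at the floor in 5 of 6 RCC4 arrays, the exception being 4.30 in EV with vehicle. In UMRC2 it measured 7.23, 7.62 and 7.73 with vehicle and 7.29, 6.64 and 6.99 with 4OHT in EV, FoxO1 and FoxO3. The level difference was -3.29 ± 0.37 (limma adjusted p = 0.000117), and its size is set in part by the floor. COL8A1 passed the filter through UMRC2 arrays only, which fixed its direction, so the p-value is no support for it. The second-brightest probe set, below the median in all arrays, gave -0.71. In 1 of 14 alternative settings the call was lost. Responses of the RCC4 lines say nothing of the gene there. In UMRC2 the FoxO responses were -0.99 and -0.74 and the EV response 0.06.

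COL8A2 (6.38 to 7.40) and COL10A1 (4.30 to 7.66) were dim and overlapped between the lines. Their level differences were -0.36 ± 0.26 and 0.93 ± 0.56, not past the threshold (limma adjusted p = 0.287 and 0.206). The sign for COL8A2 turned on values as deposited. The 1.78 response of COL10A1 in UMRC2 FoxO1 started from its lowest array.

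Among 10 fibril-associated genes, 4 were described. COL12A1 encodes type XII collagen, which binds the surface of type I fibrils and is known for its rise under mechanical load. With vehicle it measured 10.14, 10.25 and 10.21 in RCC4 EV, FoxO1 and FoxO3 and 8.52, 8.52 and 8.45 in UMRC2. After 4OHT the values were 10.47, 10.12 and 10.13 in RCC4 and 8.57, 11.36 and 10.47 in UMRC2. The UMRC2 FoxO lines thus went from well below the RCC4 values to RCC4 values or above, while UMRC2 EV and all RCC4 lines changed by at most 0.33. The level difference with vehicle was 1.70 ± 0.08 (3.26-fold, limma adjusted p = 7.91e-07), and 0.91 (0.0581) when vehicle and 4OHT arrays were averaged.

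With the EV response subtracted, the COL12A1 responses were 2.79 and 1.97 in UMRC2 and -0.47 and -0.41 in RCC4, for FoxO1 and FoxO3. The difference between lines was -2.82 ± 0.65 (95% interval -4.45 to -1.19, unadjusted p = 0.00583, limma adjusted p = 1), where 0% of all genes were called and 2.37% had an unadjusted p under 0.05. That error and p-value measure the spread between the FoxO1 and FoxO3 pairs of a line only, as EV has 1 pair per line. The joint response over both lines was 0.97 ± 0.57 (adjusted p = 0.363). Of the other 3 bright COL12A1 probe sets, 2 had UMRC2 FoxO responses of 2.12 and 1.87 and of 3.56 and 2.75. The remaining one gave 0.36 and 0.31 in the same lines.

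**Figure D4:**
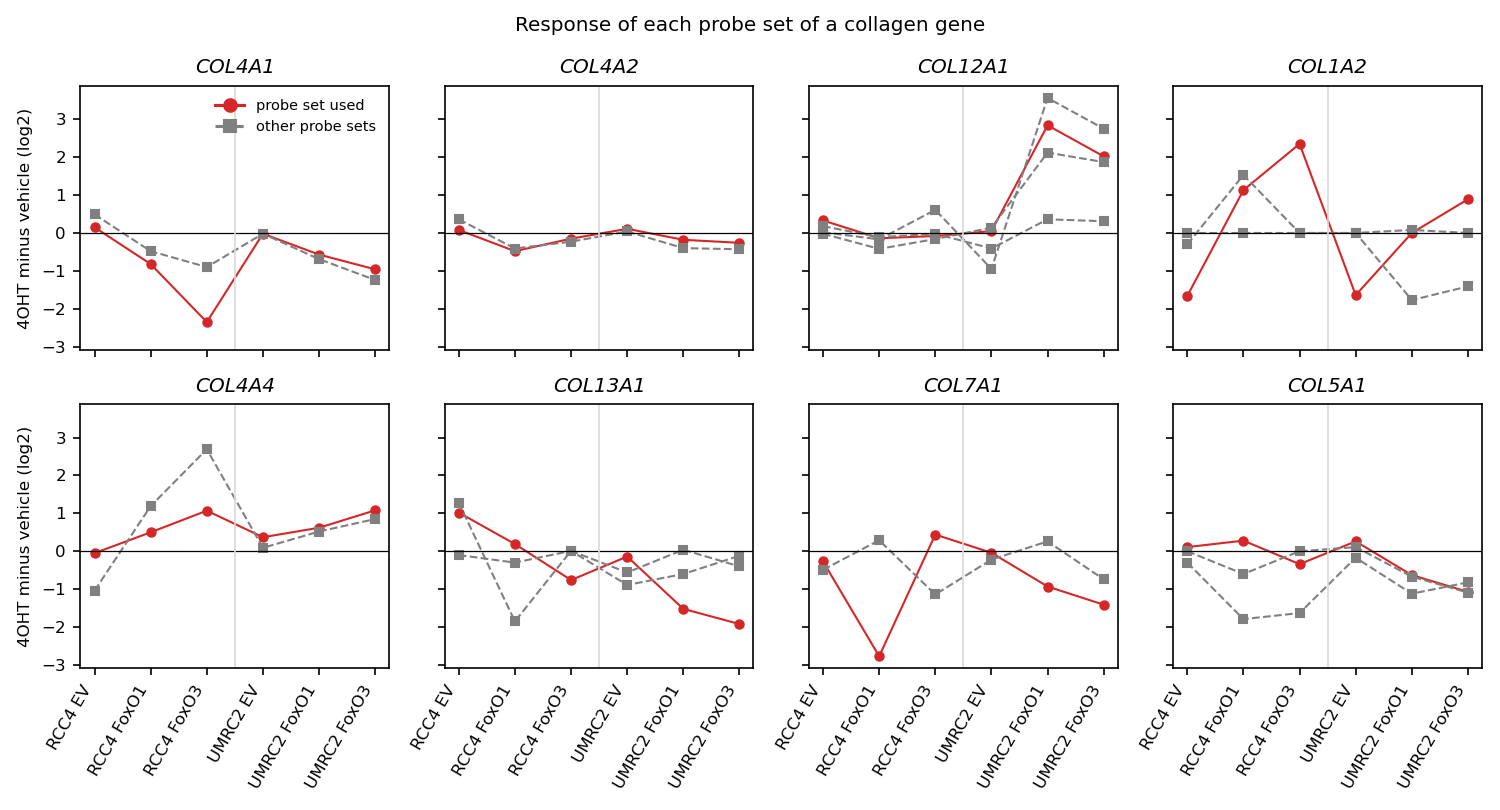
Log2 4OHT minus vehicle response of the brighter probe sets of 8 collagen genes in the 6 engineered lines. The probe set used is red and the others are grey, with lines joining values of 1 probe set. Dim probe sets are left out, except for COL1A2. The second-brightest one of COL4A4, with a joint response of -0.16, is among those left out. Both COL4A1 probe sets lie below 0 in the 4 FoxO lines, at -2.35 and -0.90 in RCC4 FoxO3, and probe sets of COL1A2, COL7A1 and COL13A1 take opposite signs in some lines.

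COL22A1, a chain of muscle-tendon junctions, measured 8.44, 8.47 and 8.30 with vehicle in RCC4 EV, FoxO1 and FoxO3 and 8.98, 9.33 and 8.87 in UMRC2. Its values with 4OHT were 8.72, 8.65 and 8.37 in RCC4 and 8.94, 9.08 and 9.33 in UMRC2. The level difference of -0.66 ± 0.14 passed (limma adjusted p = 0.00444), but was 0.01 (0.966) on values as deposited and 0.04 by the other bright probe set. COL14A1, a FACIT of skin and tendon, was dim at 5.01 to 6.98, with opposite EV responses of -1.97 and 1.44. COL9A2, a chain of cartilage type IX, was between 7.30 and 8.44 except for 5.71 in UMRC2 FoxO1 with 4OHT. Its other bright probe set had a response of 0.06 in that line, against -2.38.

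COL13A1 encodes a membrane-spanning collagen of cell-matrix junctions. With vehicle it measured 4.20 (the floor), 4.84 and 4.96 in RCC4 EV, FoxO1 and FoxO3 and 9, 9.07 and 9.54 in UMRC2. The matching 4OHT values were 5.22, 5.02 and 4.20 in RCC4 and 8.86, 7.55 and 7.62 in UMRC2. The lines stood far apart, by -4.54 ± 0.30 (limma adjusted p = 5.25e-06). That size rests in part on the floor (-3.24 with the floor at the 40th percentile). COL13A1 passed the filter through UMRC2 arrays only, which fixed its direction, so the p-value is no support for it. The difference was -1.70 and -1.50 in the other 2 bright probe sets. Both UMRC2 FoxO lines were lower with 4OHT (-1.52 and -1.92, EV -0.14). The joint response was -1.44 ± 0.47 (0.115) and FoxO3 minus EV -1.77 ± 0.54 (0.0673), neither past the threshold, and 1 of the other bright probe sets had the opposite sign (0.24).

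COL23A1, the other membrane-spanning gene past the filter, was dim, between 5.65 and 6.69, with no call. COL18A1, source of endostatin, measured 10.73, 10.91 and 10.71 with vehicle in RCC4 EV, FoxO1 and FoxO3 and 9.99, 9.99 and 10.16 in UMRC2. The 4OHT arrays gave 10.85, 10.89 and 10.70 in RCC4 and 10.40, 10.28 and 10.22 in UMRC2. Every RCC4 array was above every UMRC2 array, and the level difference was 0.73 ± 0.09 (1.66-fold, limma adjusted p = 0.000138), with 0.70 in the other bright probe set. Its FoxO responses lay between -0.01 and 0.29.

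The 18 genes not past the filter were COL2A1, COL3A1, COL4A5, COL5A2, COL6A5, COL6A6, COL9A1, COL9A3, COL11A1, COL15A1, COL16A1, COL19A1, COL20A1, COL21A1, COL24A1, COL25A1, COL26A1 and COL28A1. COL9A3 and COL24A1 were at the floor in all 12 arrays. The set holds COL3A1, the main fibrillar partner of type I in soft tissue, which exceeded 5 in only 2 arrays, and COL5A2, the usual partner of COL5A1. Over the 25 genes, 15 had another probe set that reached the median in at least 2 arrays. In 6 of these at least 1 such probe set had an opposite FoxO minus EV sign, and in 4 an opposite level sign. The latter were COL1A1, COL6A1, COL11A2 and COL22A1.

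Genes that make, export, mature, bind or cut collagen were read from 7 lists, of whose 104 genes 84 were tested. With FoxO against EV, 2 rose and 4 fell, where 3.09% and 4.7% of all genes did, and with FoxO3 against EV 3 rose and 9 fell, where 6.61% and 10% did. The counts in these lists are descriptions to be read against those shares and, for level, against 27.3% of all genes higher and 24% lower in RCC4. Among 17 synthesis enzymes and chaperones, 1 rose and 1 fell, with a median of -0.24 against -0.05 over all genes. Without the RCC4 FoxO3 pair, which leaves 1 FoxO3 pair, the joint values were -0.94 for COLGALT1, -0.65 for P3H2 and -0.44 for HSPA5. With that pair they were -0.79, -0.39 and -0.37. PLOD2, the lysyl hydroxylase of collagen telopeptides, rose by 0.69 ± 0.16 (limma adjusted p = 0.0401). SERPINH1, the collagen chaperone HSP47, fell by 0.92 ± 0.21 (0.0411). FKBP14 (-1.05, 0.0512) and COLGALT1 (-0.79, 0.0612) did not pass jointly. The responses of SERPINH1 were -0.29 and -1.35 in RCC4 FoxO1 and FoxO3 and 0.20 and -1.72 in UMRC2, so both low values were in FoxO3 lines. Its FoxO3 minus EV response was -1.67 ± 0.24 (0.00496), and -2.05 without the RCC4 FoxO3 pair, a value that rests on the UMRC2 FoxO3 pair alone.

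In the FoxO3 comparison 5 of these 17 genes passed, where 16.6% of all genes did. PLOD2 rose (1.09 ± 0.18, limma adjusted p = 0.0074). The prolyl hydroxylase P4HA2 (-0.67), the galactosyltransferase COLGALT1 (-1.08) and the prolyl isomerase FKBP14 (-1.47) fell along with SERPINH1. FKBP14 missed the threshold without the RCC4 FoxO3 pair (-1.39), which leaves 1 FoxO3 pair. Between the cell lines, 4 of the 17 were higher in RCC4 and 9 lower (median -0.33), where 27.3% and 24% of all genes were. FKBP10 (-4.83) and P3H4 (-4.22), partners in lysyl hydroxylation, were at the floor in 6 and 5 of the 6 RCC4 arrays, so the size of both depends on the floor. Both passed the filter through UMRC2 arrays, which fixed their direction, so the count of lower genes is no support for it. P4HA2 (-1.45) and FKBP14 (-1.13) were lower too.

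Of 12 maturation and cross-linking genes, ADAMTS3, a procollagen N-propeptidase, fell (-1.81 ± 0.31, limma adjusted p = 0.0164), and the list's median was -0.47 against -0.05. Its responses were -1.29 and -2.85 in RCC4 FoxO1 and FoxO3 and -1.49 and -2.27 in UMRC2, against 0.04 and -0.38 in EV. LOX, the lysyl oxidase that cross-links fibrils, did not pass jointly (1.11 ± 0.29, 0.0628) and rose with FoxO3 (1.45 ± 0.34, 0.0256). Without the RCC4 FoxO3 pair, which leaves 1 FoxO3 pair, those values were 0.74 and 0.72. LOXL2 fell with FoxO3 (-0.55, 0.0406), and missed the threshold without that pair (-0.39). ADAMTS14 and TLL2 had joint values of -1.68 and -1.63 that did not pass. In level, LOXL1 (-4.57), TGM2 (-3.12) and TLL2 (-2.92) were lower in RCC4 and PCOLCE2 (3.30) higher, among 2 higher and 6 lower of the 12, where 27.3% and 24% of all genes were. LOXL1 was at the floor in all 6 RCC4 arrays and TLL2 in 1, so the size of either depends on the floor. LOXL1 passed the filter through UMRC2 arrays only, which fixed its direction in the count of lower genes.

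Of 11 collagen-cutting proteases and their inhibitors, TIMP2, an inhibitor of matrix metalloproteinases, rose (1.10 ± 0.14, limma adjusted p = 0.00733), with responses of 0.62 and 1.61 in RCC4 FoxO1 and FoxO3 and 0.53 and 1.76 in UMRC2, against 0.10 and -0.04 in EV. Its other 2 bright probe sets had the same sign. The proteases MMP8 and CTSK had joint values of -1.12 and -0.48 and the inhibitor RECK 0.59, none past the threshold. In level, MMP1 (-3.90, at the floor in 3 RCC4 arrays), TIMP1 (-1.27), MMP9 (-1.23) and MMP14 (-0.76) were lower in RCC4 and CTSK (0.80) higher.

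Of 10 collagen receptors, ADGRG1, an adhesion receptor for type III collagen, fell (-1.66 ± 0.22, limma adjusted p = 0.00797), in each FoxO line (-0.80, -2.24, -1.26 and -1.50). CD44 fell with FoxO3 (-0.64, 0.0229). Without the RCC4 FoxO3 pair its value was as large (-0.65) but missed the threshold, and 2 of its 10 other bright probe sets had the opposite sign. ITGA1, an integrin for type IV collagen, had a joint value of 1.49 that did not pass. DDR2, a receptor for fibrillar collagens, was higher in RCC4 by 4.26, and CD44 (-3.28), ITGA1 (-2.86) and ITGA2 (-1.43) were lower, among 2 higher and 5 lower of the 10 (27.3% and 24% of all genes).

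None of the 10 export genes and none of the 9 matrix partners passed with FoxO against EV by limma, with medians of -0.01 and 0.21. MIA2 and PREB had the largest export values (0.82 and -0.41), and HSPG2 and DCN the largest partner values (0.80 and 0.65). In level, 7 export genes were higher in RCC4 and 1 lower, KLHL12 (1.06) leading, and of the partners 4 were higher and 3 lower, where 27.3% of all genes were higher and 24% lower. The partners included FBN2 (4.33), THBS1 (-3.58) and FBN1 (-1.95). Of 15 genes of TGF-beta signalling, a main inducer of collagen genes, only TGFB1 passed (7.79% of all genes did), falling by 0.59 ± 0.14 (adjusted p = 0.0453), and the list's median was 0.40. TGFBR3, LTBP1 and TGFBR2 had joint values of 1.57, 1 and 0.76 that did not pass. In level, 3 of the 15 were higher in RCC4 and 9 lower (27.3% and 24% of all genes), with TGFB2 at -2.53 and TGFBI, a collagen-binding protein, at -1.42.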

How the data were processed

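RNA from 12 plates was measured on Affymetrix U133 Plus 2.0 arrays. The authors deposited 1 linear intensity per probe set and array, made with MAS5 per the submitters' processing notes, with version and scaling not given in the sources used here. Of 54675 probe sets, 62 controls were dropped, and 41091 carried 1 gene symbol, 1801 several and 11721 none in the platform annotation. The deposited intensities were quantile normalised, raised to the 20th percentile of the normalised values (intensity 18.4) and turned to log2 values in R 4.3.3. Each gene was read from the probe set with 1 symbol and the highest mean, and kept where 2 or more arrays were at or above their median.

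Limma 3.58.1 tested the 6 responses with terms for construct and cell line (2 residual and 5.44 prior degrees of freedom), the line difference in response with an interaction, and the vehicle levels by line (4 residual degrees of freedom). Its prior variance followed the mean level. Two-sided p-values were adjusted by Benjamini-Hochberg across 14283 genes, and 0.05 was the limit for a call. P-values measure the spread between engineered lines. For the line difference in response they measure only the spread between the FoxO1 and FoxO3 pairs of a line, as EV has 1 pair per line. The number of arrays limits the precision, and MAS5 detection calls were not used here. On simulated data built from these genes, the FoxO against EV test recovered 44% of genes changed by 1 on the log2 scale and 70% of those changed by 2, and the level test 66% and 86%. The FoxO1 against EV test recovered 27% and 65%, and the FoxO3 against EV test 25% and 63%. In the simulation 100 of the 14283 genes were changed by 1 and 100 by 2, with independent noise. Simulated responses changed alike for both FoxO constructs and both cell lines. The deposited data differ in the share of genes called and between constructs, so these rates do not give the power of the real tests.

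The collagen genes, the 7 lists and the marker lists were chosen with earlier results of these data known. All collagen genes past the filter are named. Values in all arrays are given for those called in any comparison. From each other list, up to 4 genes are named by joint response and up to 4 by level, called ones first, together with those called for FoxO3 alone, which were chosen after their values were seen. Alternatives changed the scaling, the floor, the filter, the probe set, the prior, the model terms, and left out pairs or arrays. The second-brightest probe set was added as an alternative after seeing that probe sets disagree. Motifs were searched in RefSeq promoter windows (GRCh38.p14), which were at hand for 19 of the 25 genes. Separately, 99.9% of the probe sets with 1 symbol had a gene identifier that matched the RefSeq gene list.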

Additional observations from a re-analysis of the deposited data

Results flagged for a closer look

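For 7 of the 25 collagen genes, both FoxO responses of RCC4, less the EV response, had one sign and both of UMRC2 the opposite sign, where 14.1% of all genes tested showed this pattern. The line difference was tested for each with the limma interaction, which takes the FoxO1 and FoxO3 pairs of a line as replicates, and none passed. The RCC4 minus UMRC2 difference was -2.82 for COL12A1, -1.6 for COL27A1, -0.47 for COL6A1 and -0.78 for COL8A2. It was 2.51 for COL14A1, 2.52 for COL6A3 and 1.02 for COL8A1. For COL14A1 the values less EV were 1.93 and 1.53 in RCC4 and -0.54 and -1.03 in UMRC2, and they follow EV responses of opposite sign in the 2 lines. COL6A3 had 2.02 and 0.56 against -1.57 and -0.89, and was at the floor in RCC4 EV. COL8A1 had 0.10 in both RCC4 lines, which were at the floor, against -1.05 and -0.80. COL6A1 had -0.32 and -0.21 against 0.16 and 0.27, and COL8A2 -0.08 and -0.20 against 0.11 and 1.18. For COL27A1 the pattern was absent in the other probe sets that reached the median in all 12 arrays, whose UMRC2 FoxO responses lay below EV too. No collagen gene had one sign in the FoxO1 responses of both cell lines and the opposite sign in the FoxO3 responses of both (0 of 25), where 7.06% of all genes did. Within 1 cell line the signs could differ, as for COL7A1 in RCC4 (-2.51 with FoxO1 and 0.71 with FoxO3, less EV).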

How the results depend on the processing

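Across 31 single-gene results and 477 alternative values, 417 kept direction and side of the threshold, 40 fell below it, 5 passed it and 15 changed sign. That tally holds level results and also results that had not passed, which count as kept where they stayed so. The joint FoxO results kept direction and side less often, in 6 of 15 settings for COL1A2 and 9 of 16 for COL4A1. For FoxO against EV the main count of 2 collagen genes became 0 on values as deposited, without the filter on dim genes, with a constant prior variance and with the isoforms of a line as replicates, and 1 when probe sets were averaged per gene or the cell line term was dropped. Leaving out 1 pair gave 0 to 3. For FoxO3 against EV the count became 0 with all genes kept or a constant prior and 1 with averaged probe sets, and leaving out 1 pair gave 1 to 2. Leaving out 1 pair gave 0 to 1 for FoxO1 against EV and 0 to 2 for FoxO3 against FoxO1. It gave 0 to 0 for EV, for the line difference and for the fusion lines with vehicle, and leaving out 1 array gave 14 to 16 for level. The all-gene counts moved as well: 1113 for FoxO against EV became 184 as deposited, 577 with the mean of probe sets, 0 without the filter and 192 without the UMRC2 EV pair. For FoxO3 against EV, 2377 became 583 as deposited, and for FoxO1 against EV 12 became 36 with arrays scaled to a common median. With the isoforms of a line as replicates 0 genes were called. Leaving out 1 pair leaves 1 pair of its construct, which the fit matches exactly. The counts with 1 pair left out therefore hold no spread for that construct.

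The second-brightest probe set reversed COL1A2 for FoxO (-0.80), FoxO3 (-0.71) and FoxO1 (-0.88), and for FoxO against EV also COL4A4 (-0.16), COL13A1 (0.24), COL7A1 (0.02) and COL4A3 (-1.65). In level it reversed COL1A1 (-2.81), COL22A1 (0.04), COL4A4 (-0.05), COL5A3 (0.17) and COL6A1 (0.18). The mean of probe sets reversed COL1A1 (-1.25), and values as deposited reversed COL22A1 (0.01) and COL6A1 (0.40). The cause was not tested. As deposited, the median of all genes was -0.31 for FoxO against EV, -0.42 for FoxO3 against EV and 0.77 for level. No paired analysis was possible because every combination has 1 array, as far as replicate numbers go. Pairs were formed otherwise: responses are within an engineered line, and the level fit with the construct as a block called 15 collagen genes against 16. Signal near the floor limits COL8A1, COL6A3 and COL13A1 in RCC4.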
